A study of Homo sapiens with 6 samples.

Results

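The 10 genes described here are members of the ERBB family and its ligands, namely the receptors EGFR, ERBB2 and ERBB3 and the ligands AREG, EREG, HBEGF, TGFA, BTC, EPGN and NRG1. They were chosen by name for their role in squamous carcinoma, with earlier results of these data known. Their probes were found by matching the RefSeq accession of each non-control probe to a gene symbol. All 10 genes had a probe among the 19730 genes with a matched accession, 17 probes in all, and 16 probes of 9 genes were bright enough to be tested. The exception was EPGN, whose probe was not well above background on any array. The cells were CAL-27, an established human line derived from a squamous carcinoma of the tongue. Both groups were CAL-27 cells that received an shRNA, directed against XBP-1s in the shXBP-1s group (n = 3) and a negative control in the shCtrl group (n = 3). XBP-1s is the spliced, active form of the transcription factor XBP1 made when the IRE1α arm of the unfolded protein response is on, and the study profiled these cells to look for genes that respond to its loss. The labels call this a transfection, and the methods describe CAL-27 with a stable transduction of the XBP-1s shRNA. The shRNA sequence and the number of shRNAs are not given in the sources used here. Nothing in the labels says that the 3 arrays of a group came from separate cultures, so the p-values measure the spread between these samples, which may be technical.

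ERBB receptors are tyrosine kinases that dimerise on the cell surface when a ligand binds. EGFR is bound by AREG, EREG, HBEGF, TGFA, BTC, EPGN and EGF, whereas ERBB3 and ERBB4 are bound by neuregulins such as NRG1. ERBB2 has no known ligand and serves as the partner in dimers, and ERBB3 has little kinase activity of its own. The ligands are made as membrane-bound precursors and released by ADAM proteases, and the activated receptors feed the RAS-MAPK and PI3K-AKT cascades. Squamous carcinomas of the head and neck commonly carry high EGFR, and several of its ligands act on the cells that make them.

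Levels are given as log2 of the background-subtracted signal relative to the 75th percentile of the same array, so that a value of 0 is the level of that percentile. Signals of different probes are not comparable with each other, and levels are compared for 1 probe across arrays or as the change of a difference between probes. The one other use is the sum over a marker list below, in which bright probes weigh most. That percentile was 687.4 to 761.3 in raw signal for shCtrl and 792.0 to 983.4 for shXBP-1s, so raw signals were brighter in shXBP-1s as a whole. Between 82.1% and 84.8% of the spots on an array were well above background and 0 were saturated. The XBP1 probe stood at 1.87 ± 0.02 in shCtrl and -0.52 ± 0.02 in shXBP-1s (SD, n = 3 each), and fell by 2.39 on the log2 scale (SE 0.041, limma adjusted p = 2.81e-07). That probe reads spliced and unspliced XBP1 together. All 12 squamous epithelial markers, among them KRT5, KRT14 and TP63, were well above background on the 6 arrays. Their summed linear level, in units of the 75th percentile, was 130 to 136 in shCtrl and 190 to 230 in shXBP-1s, and the part of that difference in the results on the receptors and ligands was not tested. By gene, 9 of these 12 markers were higher at a limma adjusted p below 0.05 and 0 were lower. Of all 16821 genes tested, 18.9% were higher and 27.5% lower by the same measure, and the marker counts below stand beside these shares. Of the fibroblast markers, 6 of 8 were above background on all arrays, and PDGFRA and COL3A1 were not. Of the 7 tested, 4 were higher (DCN by 1.43, LUM by 1.94, FAP by 1.76 and PDGFRA by 1.03 on the log2 scale) and 2 were lower (PDGFRB at -1.28 and COL1A1 at -0.63). PDGFRA was near the low end of the signals, with a mean of -6.75 over the arrays. It entered the test through the arrays of 1 group alone, a selection that favours a difference. Their summed level was lower, at 0.988 to 1.08 in shCtrl and 0.724 to 0.741 in shXBP-1s, with PDGFRB the brightest in it. All 7 leukocyte markers on the array were likewise well above background on the 6 arrays. They summed to 14.1 to 17 in shCtrl and 15.3 to 15.7 in shXBP-1s. The endothelial markers (5 of 6 above background, TEK not) summed to 0.229 to 0.296 and 0.271 to 0.291. By gene, 3 leukocyte markers were higher and 1 lower of 7 tested, and 0 of 5 tested endothelial markers passed in either direction. The part of these differences in the results was not tested either. In a bulk sample, fewer cells with a transcript and less of it per cell cannot be told apart. By the scanner headers, shCtrl replicates 2 and 3 shared one scan date, and shCtrl replicate 1 shared the other with the 3 shXBP-1s arrays. Arrays with the same scan date are called a slide here, and the physical slide was not read.

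In shXBP-1s, NRG1 rose more than 3-fold, AREG nearly 2-fold, and HBEGF, EREG and the transcript read by the main EGFR probe by less. TGFA rose by 0.33 on the log2 scale on its brighter probe and by 1.00 on its dimmer one. ERBB2 and BTC fell. At a Benjamini-Hochberg adjusted p below 0.05 in limma, 10 of the 16 probes were higher (62.5%, against 18.4% of all 27624 tested probes) and 4 were lower (25%, against 23.3%). The groups did not overlap for 14 of the 16 probes (87.5%), and they did not overlap for 52.4% of all tested probes. At 2-fold as well, 2 of the 16 probes passed (12.5%, against 4.90% of all tested probes), and both were probes of NRG1. The median log2 fold change over the 16 probes was 0.35, beside -0.02 over all tested probes. Ligand probes were mostly higher, 8 of 9 with 1 lower, and receptor probes were divided, with 2 of 7 higher and 3 lower. The plot of every probe on every array shows these shifts against the spread of the replicates.

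**Figure D1:**
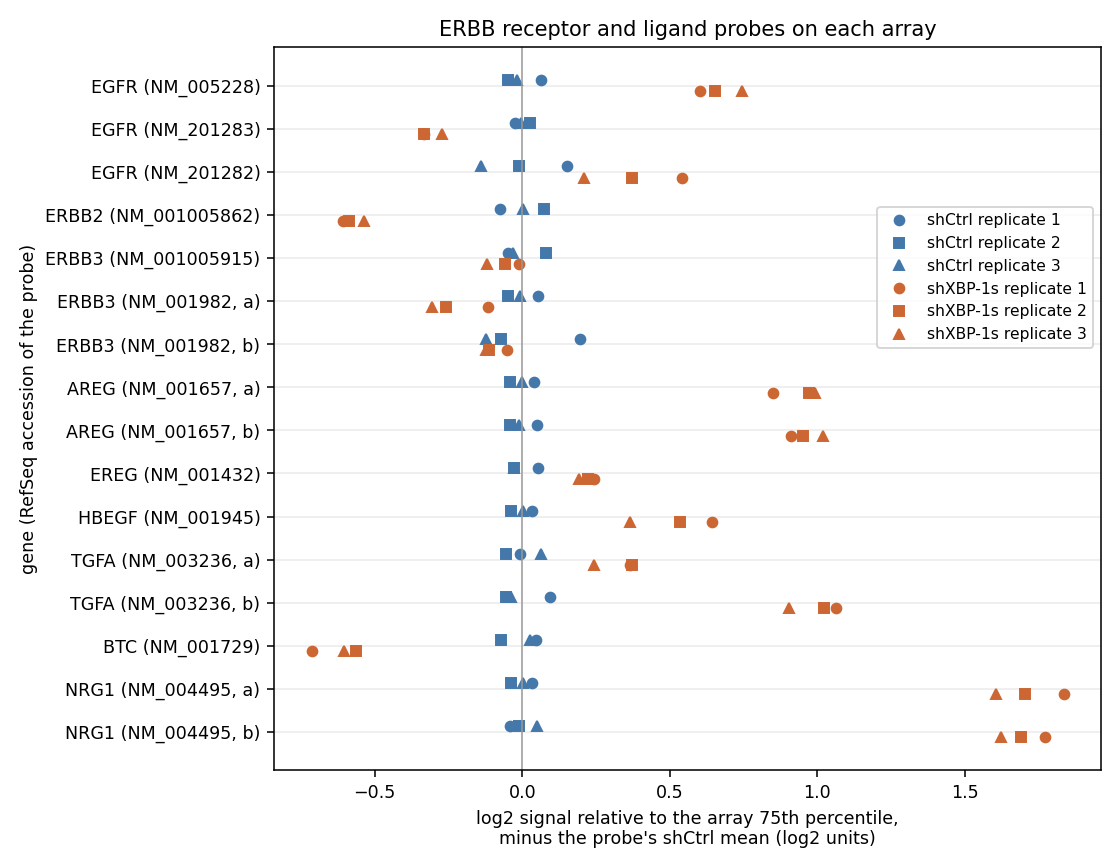
Log2 signal of the 16 tested receptor and ligand probes on each of the 6 arrays, minus the mean of that probe over the 3 shCtrl arrays, with shCtrl in blue and shXBP-1s in orange and one symbol shape per replicate number. The letters a and b tell apart 2 probes of one accession. The groups overlapped for 2 probes, both of ERBB3, and the NRG1 probes lie farthest from the shCtrl arrays.

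EGFR was read by 3 probes of different transcripts, and they did not move alike. The probe for NM_005228, the transcript of the full-length receptor, is spotted 10 times on each array. It read 2.46, 2.35 and 2.38 on the shCtrl arrays and 3.0, 3.05 and 3.14 on the shXBP-1s arrays. The shXBP-1s arrays were all higher, and the rise was 0.67 on the log2 scale (SE 0.055, 95% interval 0.54 to 0.80, limma adjusted p = 4.56e-05), a 1.59-fold increase. Single spots of this probe lay between 2.26 and 2.53 in shCtrl and between 2.94 and 3.22 in shXBP-1s, with an SD of 0.029 to 0.061 among the spots of an array. Spots of one array are repeat readings of one sample and were averaged before the test.

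The other EGFR probes were designed on NM_201282 and NM_201283, short transcripts that encode secreted forms without the kinase part. The NM_201283 probe read 0.75, 0.80 and 0.77 in shCtrl and 0.44, 0.44 and 0.50 in shXBP-1s, and fell by 0.32 (SE 0.044, limma adjusted p = 6.69e-04). Its raw signals overlapped between the groups, at 1158.7 to 1329.3 in shCtrl and 1120.3 to 1329.8 in shXBP-1s, so the fall appears only once the brighter shXBP-1s arrays are scaled. It held under quantile normalization and in the deposited values, at -0.27 and -0.26. The NM_201282 probe was dim, at -3.17, -3.33 and -3.46 in shCtrl and -2.78, -2.95 and -3.11 in shXBP-1s, and rose by 0.37 (SE 0.110, limma adjusted p = 0.0276). That call was lost with the slide as a block (0.22, adjusted p = 0.275) and when shCtrl replicate 2 or 3 or shXBP-1s replicate 1 or 2 was left out (values of 0.29 to 0.46 over all single omissions), and the direction turned to -0.28 under normexp background correction. Within an array, the NM_005228 probe minus the NM_201283 probe was 1.70, 1.54 and 1.61 in shCtrl and 2.56, 2.61 and 2.64 in shXBP-1s. The difference widened by 0.99 on the log2 scale with no overlap between the groups (2-sided exact permutation p = 0.1, the smallest that 3 arrays against 3 allow, and 0.183 after adjustment over the 11 probe pairs compared). Such a difference does not depend on the scaling of the array, and it says that the probes changed unequally, not which transcript stayed constant.

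ERBB2, the receptor without a ligand of its own, was read by 1 probe (NM_001005862) with 10 spots. It read 0.75, 0.90 and 0.83 in shCtrl and 0.22, 0.24 and 0.29 in shXBP-1s. All shXBP-1s arrays were lower, and ERBB2 fell by 0.58 (SE 0.053, 95% interval -0.70 to -0.45, limma adjusted p = 8.60e-05). On the linear scale it fell by 32.9%. Its spots lay between 0.54 and 1.02 in shCtrl and between 0.14 and 0.40 in shXBP-1s. The raw signals did not overlap either, at 1154.5 to 1423.7 in shCtrl and 969.2 to 1143.7 on the brighter shXBP-1s arrays. EGFR minus ERBB2 within an array changed by 1.24, from 1.57 ± 0.13 to 2.81 ± 0.04 (SD, n = 3 each). The exact permutation p was 0.1, and 0.183 after adjustment over the 11 pairs.

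**Figure D2:**
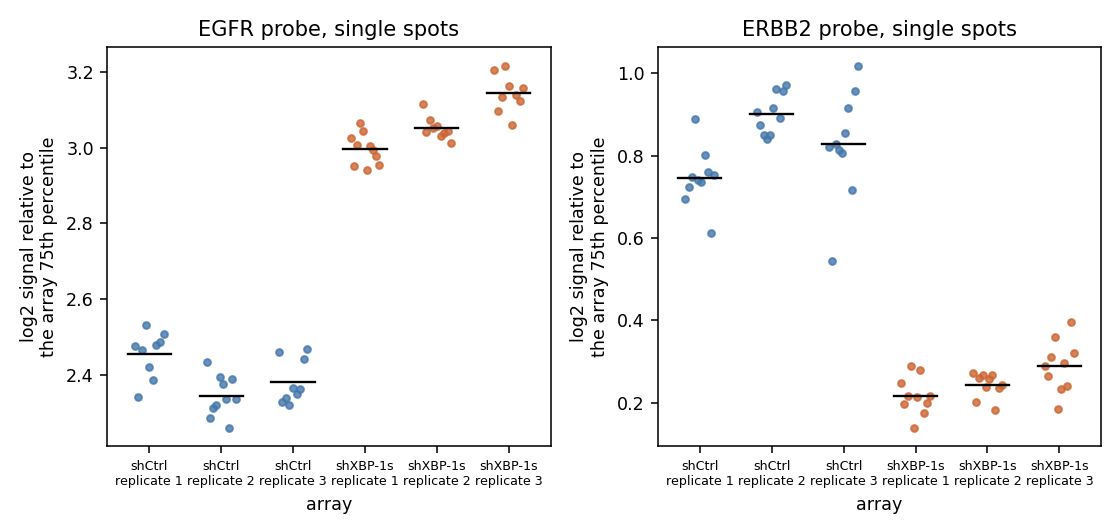
Log2 signal relative to the array 75th percentile for each unflagged spot of the EGFR (NM_005228) and ERBB2 probes on the 6 arrays, with a black line at the mean of an array. Spots of the shXBP-1s arrays (orange, 2.94 to 3.22) lie above those of the shCtrl arrays (blue, 2.26 to 2.53) for EGFR and below them for ERBB2 (0.14 to 0.40 against 0.54 to 1.02).

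ERBB3, the neuregulin receptor with a weak kinase, showed no change that held across its 3 probes. One probe of the full-length transcript NM_001982 read -0.95, -1.05 and -1.01 in shCtrl and -1.12, -1.26 and -1.31 in shXBP-1s, and fell by 0.23 (SE 0.063, limma adjusted p = 0.0208). That call was lost under normexp (-0.36) and when shCtrl replicate 3 or shXBP-1s replicate 2 or 3 was left out, with values of -0.28 to -0.19 over all single omissions. The second NM_001982 probe was near the low end of the signals and gave -0.10 (95% interval -0.40 to 0.20, adjusted p = 0.581), with the groups overlapping. The probe of the short transcript NM_001005915 gave -0.06 (95% interval -0.20 to 0.07, adjusted p = 0.425), also with overlap.

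NRG1, the ligand of ERBB3 and ERBB4, had the highest rise of the 16 probes. One of its probes read -1.09, -1.16 and -1.12 in shCtrl and 0.71, 0.58 and 0.48 in shXBP-1s. The other read -1.83, -1.80 and -1.74 in shCtrl and -0.02, -0.10 and -0.17 in shXBP-1s. Every shXBP-1s array stood more than 1.5 log2 units above every shCtrl array on both probes. The rises were 1.71 (SE 0.065, 95% interval 1.56 to 1.86, limma adjusted p = 2.02e-06) and 1.69 (SE 0.056, 95% interval 1.56 to 1.82, adjusted p = 1.45e-06), or 3.27-fold and 3.23-fold. The probes, both designed on NM_004495, differed by 0.02 in their change. Both passed 2-fold in each of the 19 alternatives run (scaling, background, filters, test, blocks and omission of single arrays), with normexp giving the lowest values, 1.5 and 1.31. Among the tested genes outside the 10, those nearest to the first NRG1 probe over the 6 arrays, by Euclidean distance after centring each probe, were SERPINB7 (distance 0.133, log2 fold change 1.69), LIPG (0.137, 1.62) and TNC (0.177, 1.70).

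AREG, an EGFR ligand, was bright and read by 2 probes of NM_001657. The first read 3.45, 3.37 and 3.41 in shCtrl and 4.26, 4.38 and 4.40 in shXBP-1s, and the second 3.26, 3.17 and 3.20 in shCtrl and 4.12, 4.16 and 4.23 in shXBP-1s. Neither probe overlapped between groups. AREG rose by 0.94 (SE 0.055, limma adjusted p = 8.62e-06) and 0.96 (SE 0.050, adjusted p = 5.75e-06), just under 2-fold, and both probes passed 2-fold under quantile normalization (1.01 and 1.03), in the deposited values (1.01 and 1.02) and under normexp (1.04 and 1.1).

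EREG, which binds EGFR and ERBB4, rose less than AREG. It read 3.10, 3.02 and 3.02 in shCtrl and 3.29, 3.27 and 3.24 in shXBP-1s, a rise of 0.22 (SE 0.045, limma adjusted p = 0.00508) without overlap. With the slide as a block, which compares the shXBP-1s arrays with shCtrl replicate 1 alone, the value was 0.17 and no longer passed (adjusted p = 0.0708). AREG minus EREG within an array was 0.36, 0.35 and 0.38 in shCtrl and 0.97, 1.11 and 1.16 in shXBP-1s. The change was 0.72 (exact permutation p = 0.1, and 0.183 after adjustment over the 11 pairs).

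HBEGF, the heparin-binding EGFR ligand, read -0.45, -0.52 and -0.48 in shCtrl and 0.16, 0.05 and -0.12 in shXBP-1s. The shXBP-1s arrays were all higher but spread more widely (SD 0.14 against 0.04), and the rise was 0.52 (SE 0.073, limma adjusted p = 7.96e-04). TGFA, another EGFR ligand, had 2 probes of the same transcript that rose by different amounts. The brighter one read 0.56, 0.51 and 0.63 in shCtrl and 0.93, 0.94 and 0.81 in shXBP-1s, a rise of 0.33 (SE 0.055, adjusted p = 0.00210). The dimmer one read -2.06, -2.21 and -2.19 in shCtrl and -1.09, -1.13 and -1.25 in shXBP-1s, a rise of 1.00 (SE 0.068, adjusted p = 1.76e-05) that lay just below 2-fold before rounding and reached it in 5 of the 19 alternatives. Their within-array difference changed by 0.67 (exact permutation p = 0.1, and 0.183 after adjustment over the 11 pairs). Under normexp the dimmer probe gave 0.47 and did not pass. The direction for TGFA was the same on both probes, and its size depended on the probe.

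BTC, which binds EGFR and ERBB4, was the one of the 6 tested ligand genes that fell. It read -2.77, -2.89 and -2.79 in shCtrl and -3.53, -3.38 and -3.42 in shXBP-1s, and fell by 0.63 (SE 0.074, limma adjusted p = 2.99e-04). Its raw signal was also lower on the brighter shXBP-1s arrays, at 74.1 to 85.9 against 100.9 to 109.3. Normexp gave -0.84, a value that did not pass, and normexp with quantile normalization gave -0.37. EPGN, the remaining EGFR ligand, had raw signals of 1.3 to 3.2 in shCtrl and 4.6 to 5.9 in shXBP-1s, all of them not well above background, and no fold change is given.

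**Figure D3:**
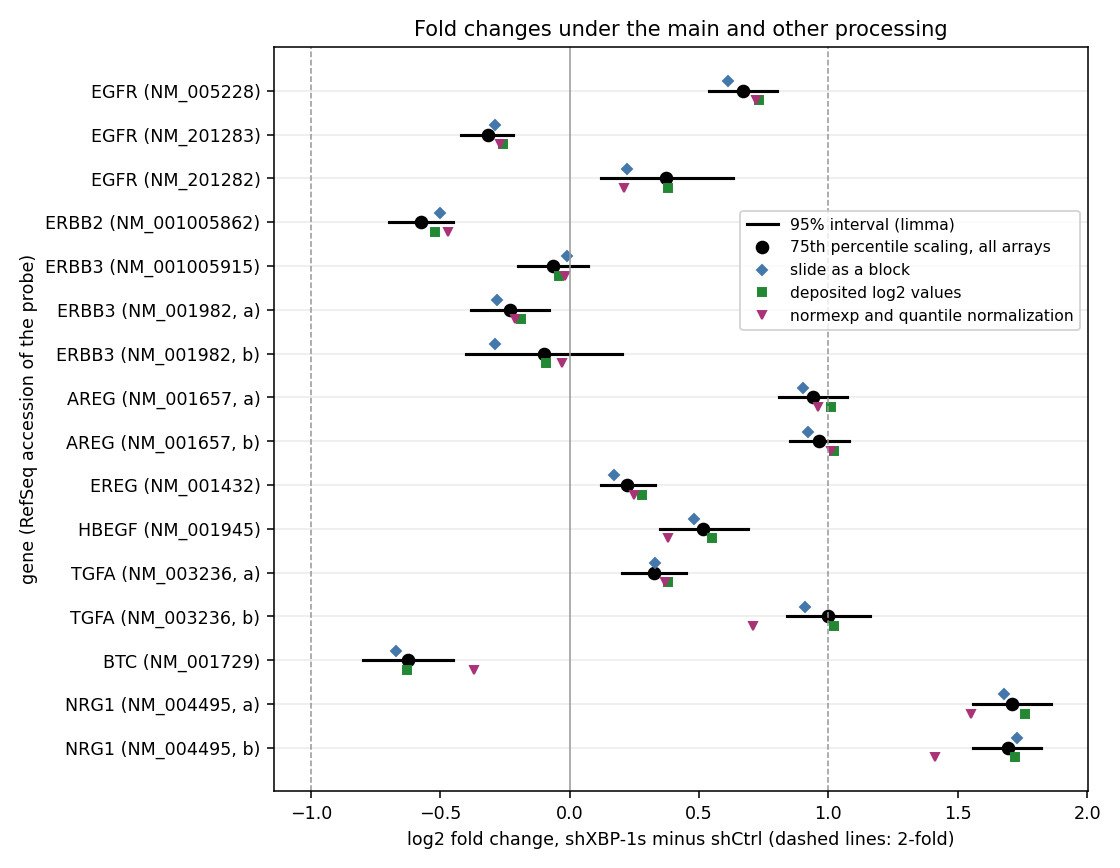
Log2 fold change of each tested probe, shXBP-1s minus shCtrl, with its 95% interval from limma (black), beside the values with the slide as a block, in the deposited log2 values, and after normexp with quantile normalization. The dashed lines mark 2-fold. The NRG1 probes lie beyond 2-fold under each of these 4 settings, the AREG probes lie close to it, and the normexp with quantile value for BTC (-0.37) lies nearest to 0 of its 4 values.

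EPGN, EREG, AREG and BTC follow each other in that order among the protein-coding genes of chromosome 4 in RefSeq, so that ligands that rose and one that fell are neighbours. On one side, MTHFD2L rose by 0.53 (SE 0.065, limma adjusted p = 3.55e-04) and the 2 probes of CXCL2 gave 0.22 and 0.04 without passing (adjusted p = 0.155 and 0.547). On the other side, beyond BTC, PARM1 fell by 0.60 (SE 0.108, adjusted p = 0.00282) and RCHY1 fell by 0.61 (SE 0.064, adjusted p = 1.65e-04). AREG minus BTC within an array changed by 1.57, from 6.22 ± 0.03 to 7.79 ± 0.03 (SD, n = 3 each). The exact permutation p was 0.1, and 0.183 after adjustment over the 11 pairs.

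The promoter windows of these neighbours are shown because their transcripts changed by different amounts and in different directions. Each runs from 250 bases before the gene start to 50 bases after it in RefSeq GRCh38.p14, 5′ to 3′ along the gene, at chr4:74364895-74365194, plus strand (EREG), chr4:74444886-74445185, plus strand (AREG) and chr4:74794474-74794773, minus strand (BTC). Capitals mark TGACGTCA, the cyclic AMP response element, and the pentamers CCACG and ACGTG on either strand, which occur within the longer elements that XBP1 is known to bind and can overlap each other.
EREG: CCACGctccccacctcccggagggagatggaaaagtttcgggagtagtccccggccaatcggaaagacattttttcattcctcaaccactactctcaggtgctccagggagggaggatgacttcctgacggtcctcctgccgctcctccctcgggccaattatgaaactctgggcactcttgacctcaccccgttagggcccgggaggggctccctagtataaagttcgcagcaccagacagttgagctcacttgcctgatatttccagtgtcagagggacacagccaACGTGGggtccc
AREG: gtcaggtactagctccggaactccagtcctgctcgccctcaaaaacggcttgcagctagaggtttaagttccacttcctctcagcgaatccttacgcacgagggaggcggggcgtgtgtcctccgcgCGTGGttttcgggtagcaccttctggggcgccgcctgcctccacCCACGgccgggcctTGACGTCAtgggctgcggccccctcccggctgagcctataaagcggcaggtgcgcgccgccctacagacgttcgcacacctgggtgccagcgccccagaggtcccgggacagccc
BTC: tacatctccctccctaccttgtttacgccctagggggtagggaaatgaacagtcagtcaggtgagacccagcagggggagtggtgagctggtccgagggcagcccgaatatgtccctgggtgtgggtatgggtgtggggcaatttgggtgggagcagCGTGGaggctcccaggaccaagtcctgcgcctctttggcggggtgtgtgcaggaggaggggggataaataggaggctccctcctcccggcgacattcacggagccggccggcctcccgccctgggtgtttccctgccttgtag
AREG holds TGACGTCA 65 bases before its start, as do 1.85% of the 35116 windows of all genes at some position, and CCACG in reverse 123 bases and CCACG 79 bases before it. EREG holds CCACG 250 bases before its start and, from base 39 of the gene, the overlapping ACGTG and CCACG in reverse. BTC holds CCACG in reverse 93 bases before its start. Since 38.1% of all windows hold CCACG and 21.4% hold ACGTG, such matches are frequent, and they describe the letters only. The longer XBP1 element TGACGTGG, which contains both pentamers, occurs in 0.729% of all windows and in 0 of the 10 windows found for 8 of the 10 genes. NRG1 and ERBB3 had no window in the table used.

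The rest of the ERBB pathway was described with 6 lists written from general knowledge, each gene by its brightest tested probe. By the same measure, 6 of the 9 tested receptor and ligand genes were higher and 2 lower at adjusted p below 0.05, with ERBB3, by its short-transcript probe, not passing and a median of 0.33. EGFR counts as higher by its brightest probe (0.67), whereas its NM_201283 probe fell, and the mean over its tested probes changed by 0.24. Of all 16821 genes tested, 18.9% were higher and 27.5% lower, with a median of -0.04, and at 2-fold as well 2.30% were higher and 2.88% lower. Of the 111 pathway genes tested, 31 were higher and 34 lower, 4 and 5 of them by at least 2-fold, with a median of -0.06.

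Within the remaining family members, ERBB4 and NRG2 fell and EGF and NRG4 did not pass. NRG2, a neuregulin, read -2.88, -2.50 and -2.72 in shCtrl and -4.75, -4.74 and -4.98 in shXBP-1s, and fell by 2.12 (SE 0.119, limma adjusted p = 7.37e-06), the opposite direction to NRG1. ERBB4, a neuregulin receptor, was dim at -5.01, -4.71 and -4.62 in shCtrl and -6.94, -7.07 and -7.13 in shXBP-1s, where it was well above background on 2 of 3 arrays. ERBB4 entered the test through the shCtrl arrays alone, a selection that favours a fall. It was not tested where all arrays had to be well above background. It fell by 2.27 (SE 0.162, adjusted p = 2.24e-05). The value was -1.26 and did not pass under normexp, and it was -0.42 under normexp with quantile normalization, where NRG2 gave -0.98. The second ERBB4 probe and the NRG3 probes were too dim to test. EGF gave -0.20 (adjusted p = 0.0989) and NRG4 gave -0.07 (adjusted p = 0.815). EGF passed without shXBP-1s replicate 1, at -0.265.

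Among 14 genes of ligand shedding, 3 were higher and 6 lower, none of them by 2-fold, with a median of -0.11. Of all genes tested, 18.9% were higher and 27.5% lower. The list holds proteases and their inhibitors together. All 3 higher genes code for ADAM proteases and the 6 lower ones include TIMP inhibitors, so the counts give no direction of shedding. TIMP2, an inhibitor of metalloproteases, fell by 0.76 (SE 0.054, limma adjusted p = 2.16e-05), and FRMD8, a partner of the iRhom proteins that carry ADAM17, fell by 0.50 on its brighter probe (SE 0.057, adjusted p = 2.44e-04) with -0.21 on the other (adjusted p = 0.219), and its brighter probe did not pass under normexp (-0.24). Among 21 tested genes of the adaptors and the RAS-MAPK cascade, 8 were higher and 5 lower, with a median of -0.05. The kinase gene BRAF rose by 0.83 (SE 0.056, adjusted p = 1.73e-05) and did not pass under normexp (0.42). Among 23 genes of the PI3K-AKT, PLC-gamma and STAT arms, 3 were higher and 8 lower, with a median of -0.09. The transcription factor gene STAT5B fell by 0.48 (SE 0.044, adjusted p = 8.54e-05).

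Genes that limit the receptors or the cascade changed in both directions, with 8 of 26 higher, 7 lower and a median of -0.04. DUSP6, a phosphatase that switches off ERK and is itself induced by ERK activity, rose by 1.15 (SE 0.047, limma adjusted p = 2.62e-06). EPS15, which helps internalise EGFR, fell by 1.08 (SE 0.047, adjusted p = 2.95e-06). Genes that commonly respond to ERK were 9 higher and 6 lower of 23 tested, with a median of 0.14, and they too held members at 2-fold in each direction. JUN, a subunit of the AP-1 factor, rose by 1.37 (SE 0.069, adjusted p = 4.79e-06), and MMP1, a collagenase, rose by 1.25 (SE 0.142, adjusted p = 2.47e-04) but gave 0.15 under normexp. CCND1, the cyclin of the G1 phase, fell by 1.30 (SE 0.079, adjusted p = 1.04e-05). ETV1, an ETS factor, fell by 1.01 on its brightest probe (SE 0.057, adjusted p = 7.49e-06). Another ETV1 probe fell by 1.15, and one gave 0.18 without passing. The fourth was well above background on the 3 shCtrl arrays and on 0 shXBP-1s arrays, so it entered the test through shCtrl alone. Its value was -0.91 (95% interval -1.35 to -0.47), and this selection favours a fall. Several of these genes answer to other signals as well, and the counts of the lists are not evidence of receptor activity, which was not measured.

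**Figure D4:**
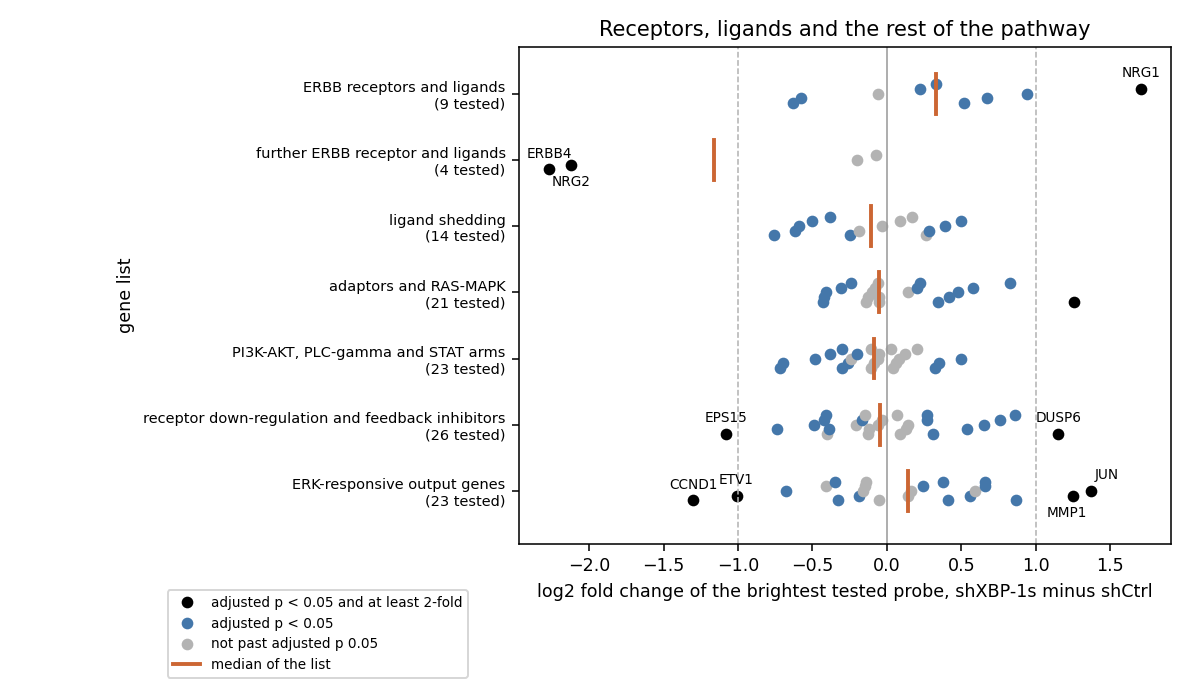
Log2 fold change, shXBP-1s minus shCtrl, of each tested gene by its brightest probe, in the 9 receptor and ligand genes and in the 6 pathway lists. Black points passed adjusted p 0.05 and 2-fold, blue points adjusted p 0.05, and orange bars mark medians. Labels are given to points past 2-fold that the text names. The median of the receptors and ligands lies at 0.33. That of the 4 further family members, at -1.16, lies midway between NRG2 (-2.12) and EGF (-0.20, not past adjusted p 0.05). ERBB4 lies below these and NRG4 above them.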

How the data were processed

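Total RNA of CAL-27 cells was hybridised to 6 Agilent 1-colour arrays (Cy3), 1 per sample, and all 6 were used. The labels describe a NimbleGen labelling procedure. For each array the authors deposited Agilent Feature Extraction 11.0.1.1 output, in which each spot has an intensity after background subtraction that is not normalized between arrays. A second deposited table holds log2 values, for which the submitters' processing notes name RMA. Its median was 6.269 on each array, it correlated with the scanner log2 values at 0.9895 to 0.9920 over 34108 probes, and its exact steps are not given in the sources used here.

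The log2 intensity was set relative to the array's 75th percentile over non-control spots. Flagged spots (230 to 377 per array) were left out and spots of a probe averaged. Of 34127 probes, 19 without an unflagged spot on some array were dropped, and a probe had to be well above background (more than 50% of its spots) on the 3 arrays of one or both groups. The 27624 that were entered a fit in limma 3.58.1 and R 4.3.3 (lmFit, eBayes with trend, 2-sided) with Benjamini-Hochberg adjustment over all of them. A probe was called at adjusted p below 0.05, and at 2-fold where stated. Symbols came from RefSeq accessions without version, for 25771 probes. Gene coordinates are left out because the arrays were annotated on hg19, and promoter coordinates are those of the RefSeq table. The exact permutation p-values given are those of the within-array differences between probes, over the 6 arrays.

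The genes and lists were chosen with earlier results of these data known. Named genes are the members, XBP1, the further family members and, per pathway list, up to 4 genes with the smallest p at 2-fold (up to 2 at adjusted p below 0.05 where fewer than 2 reached 2-fold). The CXCL2, MTHFD2L, PARM1 and RCHY1 values are those of the genes next to the chromosome 4 ligands, and were added for their position. Some genes that this rule selects are not reported here. Alternatives were other scalings, normexp (offset 50, on the median spot signal, since no mean signal was used here), the deposited values, other filters and thresholds, other tests, the slide or replicate number as a block, the mean over probes, and leaving out each array. The replicate numbers did not pair the samples, with correlations of deviations of -0.02, 0.12 and -0.12. No columns of other samples were present. The number of arrays limits the precision.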

Additional observations from a re-analysis of the deposited data

How the results depend on the processing

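Of the 304 values of the 16 receptor and ligand probes over 19 alternatives, 289 kept their direction and side of the threshold, 14 lost the threshold in the same direction and 1 changed direction, EGFR NM_201282 (A_33_P3351955) at -0.282 under normexp. The number of probes called over all genes was 1354 and moved to 473 under normexp, 363 under normexp with quantile normalization, 4129 at 1.5-fold and 11516 without a minimum fold. Normexp moved the median of all tested probes from -0.02 to -0.41 and the share of calls that were higher from 46.7% to 33.6%. Called receptor and ligand probes numbered 2 and became 4 under normexp, 5 under quantile normalization, 5 in the deposited values, 7 at 1.5-fold and 14 without a minimum fold, with AREG and TGFA the genes added under the scalings. Called pathway genes numbered 9 and became 4 under normexp with quantile normalization, 23 at 1.5-fold and 65 without a minimum fold. Leaving out single arrays gave 1275 to 1750 called probes, and turned NRG4 (-0.22 to 0.10) without shCtrl replicate 1 or shXBP-1s replicate 3. With the replicate number as a block, 1381 probes were called, 2 of them receptor or ligand probes, and 14 of those passed adjusted p 0.05. Of the same-numbered samples, only those with number 2 correlated best with each other. The methods' t-test called 1291 probes at their threshold and 2-fold, and 1214 after Benjamini-Hochberg adjustment. The causes of these changes were not tested. Dim probes (BTC, ERBB4, EGFR NM_201282, MMP1) are limited by their signal over background.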
